A study of Mus musculus with 6 samples.

Results

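The 10 genes described here encode the subunits of the mTOR complexes 1 and 2 (Mtor, Rptor, Rictor, Mlst8, Akt1s1, Deptor, Mapkap1, Prr5 and Prr5l) and TELO2, a factor needed for the stability of the mTOR kinase. They were chosen by name as parts of these complexes, with earlier results of these data known, and all 10 were found among the 19060 genes of the deposited count table. RNA was sequenced from the proximal end of the mouse incisor in 3 control and 3 mutant samples. Control mice were Fgfr1fl/fl, and their genotype tag reads wild type although both Fgfr1 alleles carry loxP sites. Mutant mice were Gli1-Cre;Fgfr1fl/fl (written Gli1CreER;Fgfr1fl/fl in the methods), so that Fgfr1 is deleted after tamoxifen in cells that express Gli1, and other cells of the tissue keep it. All mice are labelled as 1 month of age and were collected 1 week after tamoxifen (TMX). The labels do not say that each sample was a separate animal, so the p-values below measure the spread between these samples.

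mTOR is a serine/threonine kinase that works in a pair of complexes with different partners and substrates. In mTORC1 it is joined by Raptor (Rptor), which binds substrates, and by the inhibitor PRAS40 (Akt1s1). This complex is known to promote protein synthesis and to hold back autophagy when growth factors and amino acids are plentiful. In mTORC2 it is joined by Rictor, mSIN1 (Mapkap1) and Protor-1 or Protor-2 (Prr5 and Prr5l), and this complex phosphorylates AKT, SGK and PKC kinases. MLST8 and the inhibitor DEPTOR are found in both. The comparison asked whether the mRNA levels of these parts differed between incisors with and without deletion of Fgfr1 in Gli1+ cells. Phosphorylation and complex assembly, through which the kinase is mainly controlled, are not seen in RNA.

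The promoters of the kinase and of the 4 genes whose 3 mutant samples all lay below the 3 control samples are printed here, since those genes carry the main differences described below. Each is the RefSeq sequence (GRCm38.p6) from 250 bases before to 50 bases after an annotated transcript start, read 5′ to 3′ on the strand of the gene. Capitals mark matches, on either strand, to the ETS letters CCGGAAG, the SP1 letters GGGCGG or the CCAAT box. The E-box letters CACGTG, the TATA box letters TATAAA and the NRF1 motif were also searched. The Mtor window is chr4:148448332-148448631 on the + strand, Mlst8 chr17:24479029-24479328 on the - strand, Mapkap1 chr2:34406521-34406820 on the + strand, Prr5 chr15:84680748-84681047 on the + strand and Prr5l chr2:101882978-101883277 on the - strand. For Mapkap1, Prr5 and Prr5l this is 1 of several annotated starts.
Mtor promoter: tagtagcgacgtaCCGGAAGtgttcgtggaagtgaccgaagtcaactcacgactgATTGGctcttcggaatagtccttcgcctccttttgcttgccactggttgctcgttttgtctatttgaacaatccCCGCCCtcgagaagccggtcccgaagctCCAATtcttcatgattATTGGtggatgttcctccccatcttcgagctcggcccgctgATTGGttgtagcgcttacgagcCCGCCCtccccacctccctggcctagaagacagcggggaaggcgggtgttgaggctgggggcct
Mlst8 promoter: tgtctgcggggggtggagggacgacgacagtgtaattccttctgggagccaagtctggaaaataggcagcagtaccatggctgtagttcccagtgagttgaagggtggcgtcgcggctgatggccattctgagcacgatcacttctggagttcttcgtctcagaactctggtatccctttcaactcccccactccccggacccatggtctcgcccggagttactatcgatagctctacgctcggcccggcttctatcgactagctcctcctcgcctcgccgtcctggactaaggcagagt
Mapkap1 promoter: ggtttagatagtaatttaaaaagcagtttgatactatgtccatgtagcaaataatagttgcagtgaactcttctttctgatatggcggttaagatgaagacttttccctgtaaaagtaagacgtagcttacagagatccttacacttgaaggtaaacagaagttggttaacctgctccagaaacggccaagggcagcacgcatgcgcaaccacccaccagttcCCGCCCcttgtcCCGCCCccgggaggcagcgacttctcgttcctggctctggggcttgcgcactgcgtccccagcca
Prr5 promoter: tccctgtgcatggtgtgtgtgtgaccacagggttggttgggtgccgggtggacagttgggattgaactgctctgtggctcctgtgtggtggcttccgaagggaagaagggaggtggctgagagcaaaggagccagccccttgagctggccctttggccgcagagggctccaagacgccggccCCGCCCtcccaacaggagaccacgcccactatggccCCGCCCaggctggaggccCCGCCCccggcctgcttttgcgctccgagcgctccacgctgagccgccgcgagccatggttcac
Prr5l promoter: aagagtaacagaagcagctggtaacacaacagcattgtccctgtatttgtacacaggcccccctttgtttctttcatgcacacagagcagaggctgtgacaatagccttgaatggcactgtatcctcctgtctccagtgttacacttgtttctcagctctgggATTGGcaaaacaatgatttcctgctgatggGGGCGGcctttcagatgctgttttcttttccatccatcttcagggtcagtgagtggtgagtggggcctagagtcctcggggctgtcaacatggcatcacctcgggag
The Mtor window held 1 ETS, 4 CCAAT and 2 SP1 matches. The Prr5 window held 3 SP1 matches, the Mapkap1 window 2 SP1 matches, the Prr5l window 1 CCAAT and 1 SP1 match, and the Mlst8 window none of the letters searched. The windows not printed differed. That of Mapkap1 held 1 ETS and 2 SP1 matches, and that of Prr5 held 1 CCAAT and 1 SP1 match. Those of Prr5l held 1 TATA box match and 1 CCAAT match between them. Of all 32851 promoters of this length, 8.9% held the ETS letters, 37.4% CCAAT and 35.7% the SP1 letters, so most of these matches are of common kinds. The printed Prr5l window was poor in CG pairs, with 3 against 21 in that of Mtor, and the median of all promoters was 7. No entry was found for Deptor.

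The samples differed in depth. The control samples held between 31060222 and 32712448 counts and the mutant samples between 5276557 and 11819576, so depth and genotype cannot be told apart. Levels are given as CPM, counts scaled to a common library size by the upper quartile, and 15826 genes passed edgeR's filter on low counts, all 10 mTOR complex genes among them. Fgfr1 (chr8:25513654-25575718), the deleted gene, had 529.3, 924.4 and 433.9 CPM in controls against 148.4, 317.9 and 261.6 CPM in mutants, with a log2 change of -1.37 (standard error 0.40; edgeR, adjusted p = 0.0881). Most markers of the labelled tissue were found in every sample, except that Barx1 and Sox2 were at 0 in mutant samples 1 and 2. Col1a1, which many connective tissues express, made up 89.6% to 96.2% of the dental mesenchyme sum, and the other 8 markers of that list summed to between 1470 and 2150 CPM in control and between 1600 and 2390 CPM in mutant samples. The 6 odontoblast markers summed to between 6730 and 17800 and between 5480 and 6930 CPM. Col1a2 made up 36.5% to 68.4% of this sum. Without it the sums were between 2120 and 8760 CPM in control and between 2750 and 4270 CPM in mutant samples. The 8 dental epithelium and ameloblast markers summed to between 85700 and 121000 and between 31700 and 70000 CPM. The 5 erythroid markers ran from 380 to 823 CPM in control and from 926 to 2560 CPM in mutant samples, and the 7 skeletal muscle markers from 7.78 to 2360 and from 128 to 4130 CPM. Macrophage markers (93.2 to 299 and 189 to 262 CPM), endothelial markers (146 to 243 and 118 to 134 CPM) and Schwann cell markers (28.7 to 46.7 and 24.0 to 99.5 CPM) were low throughout. At the threshold of the study given below, 2 odontoblast markers were lower, Col1a2 and Wnt10a. Of the erythroid markers 2 were higher and 1 was lower, and the other 6 lists had none. The epithelium and endothelium sums were lower and the erythroid sums higher in every mutant sample than in every control sample. Without their highest gene (Cdh5 and Hbb-bs) the endothelium and erythroid sums overlapped between the groups, and without Amelx those of the epithelium did not. Their part in the results below was not tested. In a bulk sample, fewer cells of a type and less RNA per cell cannot be told apart.

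None of the 10 mTOR complex genes rose or fell between the genotypes in edgeR's quasi-likelihood test once p-values were adjusted (under 0.05), against 6.79% of all genes tested. That share depended on the genes fitted. With protein-coding genes only, as all 10 are, it was 0.391%, and with transcript length and GC content corrected it was 0.878%, again with 0 of the 10. DESeq2 and edgeR with total counts each called 1, which was Prr5l, where they called 10.2% and 7.18% of all genes, and limma-voom called 0, where it called 8.47%. At the threshold of the study, more than 1.5-fold at p under 0.05 without adjustment, 1 of 10 was lower in the mutant samples, and this was also the count at an unadjusted p under 0.05 alone. Of all genes tested, 8.92% were lower at that threshold. No mTOR complex gene was higher, where 10.9% of all genes were. The 10 genes had a median log2 change of -0.52, and 9 of the 10 changes were negative, beside a median of -0.04 and 51.8% negative over all genes tested. With TMM scaling or total counts all 10 were negative, and the medians were -0.62 and -0.79 where those of all genes moved to -0.13 and -0.30. The 3 mutants each lay below every control for Mlst8, Mapkap1, Prr5 and Prr5l, which is 4 of 10 genes where 16.3% of all genes did so. The same 4 did so under both other scalings, but the share of all genes rose too, to 18.9% with TMM and 24.2% with total counts. They also did so with any 1 sample left out, as did 17.9% to 29.8% of all genes. Leaving out a sample cannot make separate groups overlap, so those fits do not test the separation. Without control sample 1 the count was 6 of 10, where 19.9% of all genes did so.

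**Figure D1:**
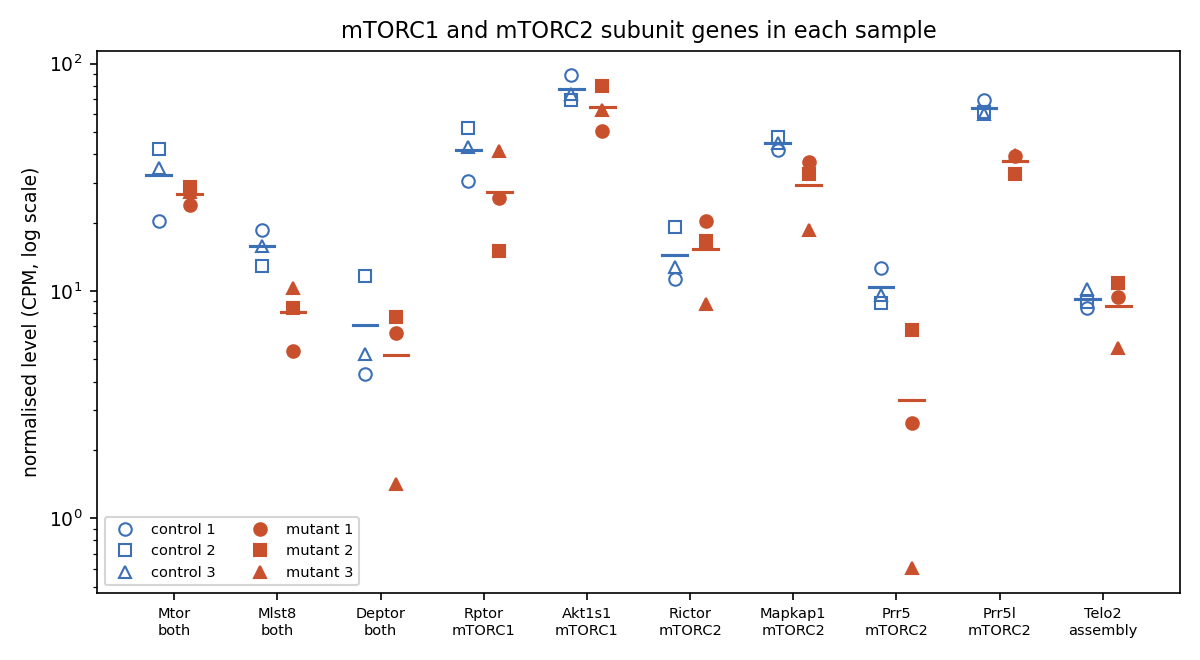
Normalised level (CPM, log scale) of each gene in each sample, ordered by complex. Open blue symbols are control samples, filled red symbols are mutant samples and bars are group means. The groups are apart for Mlst8, Mapkap1, Prr5 and Prr5l and overlap for the other 6 genes.

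The kinase gene Mtor (chr4:148448611-148557683) had 20.3, 42.0 and 34.6 CPM in controls against 24.0, 28.8 and 27.2 CPM in mutants. The 3 mutant samples fell within the range of the control samples, of which control 1 was the lowest and control 2 the highest. Its log2 change was -0.28 with a 95% interval from -1.07 to 0.52 (edgeR, adjusted p = 0.745). Mtor was the only one of the 10 genes with a narrower range among mutant than among control samples, 0.26 against 1.05 on the log2 scale.

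Mlst8 (chr17:24473551-24479078), whose WD40 protein binds the kinase domain in both complexes, had 18.6, 12.9 and 15.7 CPM in the control samples. In the mutant samples it had 5.46, 8.45 and 10.3 CPM, from 25, 99 and 102 counts. All mutant samples were below all control samples, with means of 8.06 ± 2.44 and 15.7 ± 2.82 CPM (SD, n = 3). The log2 change of -0.96 (standard error 0.50) had an interval from -2.11 to 0.20, and it did not pass the test (edgeR, adjusted p = 0.345). Its annotated exons overlap those of Bricd5, on the opposite strand, over 22.5% of their bases. Whether the counting used strand is not given in the sources used here, and Bricd5 itself was listed at 0 to 6 counts in control samples and at 0, 0 and 43 counts in mutant samples.

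Deptor (chr15:55112317-55259271), which encodes an inhibitor that binds mTOR, was the lowest of the 10 genes per kilobase of transcript. Its levels were 4.31, 11.6 and 5.26 CPM in controls against 6.55, 7.69 and 1.41 CPM in mutants. The groups overlapped, with mutant sample 3 at 14 counts below all others and control sample 2 above all others. The log2 change of -0.44 had an interval from -2.45 to 1.57 (edgeR, adjusted p = 0.849), and it was 0.12 without control sample 2.

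In mTORC1, Rptor (chr11:119602905-119899576) had 30.5, 51.9 and 43.1 CPM in controls against 25.8, 14.9 and 41.2 CPM in mutants. The groups overlapped only through mutant sample 3, which lay between the control samples, while the other two mutant samples were below all of them. The log2 change was -0.62 with an interval from -1.57 to 0.33 (edgeR, adjusted p = 0.481). Without mutant sample 3 it was -1.06 and past the threshold of the study, and without mutant sample 2 it was -0.33 and was not.

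Akt1s1 (chr7:44848991-44855421), which encodes the inhibitor PRAS40, had 88.7, 69.0 and 73.2 CPM in controls against 50.6, 79.8 and 62.3 CPM in mutants. Per kilobase of transcript it was the highest of the 10 in every sample, and the groups overlapped. Its log2 change of -0.26 had an interval from -0.83 to 0.31 (edgeR, adjusted p = 0.650). A small stretch of its exons, 2.9% of their bases, overlaps Tbc1d17 on the opposite strand.

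In mTORC2, Rictor (chr15:6708379-6800401) encodes the subunit that defines the complex. It had 11.2, 19.1 and 12.8 CPM in controls against 20.3, 16.7 and 8.77 CPM in mutants. Mutant samples held both the highest and the lowest value of the 6. Its log2 change of 0.08, with an interval from -1.05 to 1.21 (edgeR, adjusted p = 0.958), was the only positive one of the 10 and was -0.02 with TMM scaling and -0.20 with total counts.

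Mapkap1 (chr2:34406771-34624950) encodes mSIN1, which helps mTORC2 to recognise AKT. It had 41.5, 47.5 and 44.6 CPM in controls against 36.9, 32.6 and 18.5 CPM in mutants. The control samples were close together, with a coefficient of variation of 6.71%, and all mutant samples were below them. The log2 change of -0.61 (standard error 0.32) had an interval from -1.34 to 0.13 (edgeR, adjusted p = 0.348). It passed the threshold of the study with total counts and with limma-voom, at -0.87 and -0.74, and did so without mutant sample 1, at -0.82. Without mutant sample 3 the change was -0.37.

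Prr5 and Prr5l encode the paralogous Protor proteins, which bind Rictor. Prr5 (chr15:84669620-84703673) had 12.7, 8.85 and 9.65 CPM in controls against 2.62, 6.75 and 0.605 CPM in mutants. All mutant samples were below the control samples, and mutant sample 3 was the lowest, with 6 counts (95% Poisson interval 2.2 to 13.1, counting error only) beside 12 and 79 in mutant samples 1 and 2. The log2 change of -1.63 was the most negative of the 10, but its standard error was 0.92, its interval ran from -3.74 to 0.47 and it did not pass the test (edgeR, adjusted p = 0.381). It ranged from -2.75 without mutant sample 2 to -1.15 without mutant sample 3, and without mutant sample 2 it passed the threshold of the study, as it also did with limma-voom, at -2.15.

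Prr5l (chr2:101714285-101883027) had 69.4, 61.2 and 60.3 CPM in controls against 39.3, 32.8 and 39.5 CPM in mutants. Both groups were tight, at 63.6 ± 5.02 and 37.2 ± 3.82 CPM (SD, n = 3), and they did not overlap. It was 1.71-fold lower in the mutant samples, a log2 change of -0.78 (standard error 0.23) with an interval from -1.30 to -0.25. Prr5l was the 1 gene of the 10 past the threshold of the study (edgeR, adjusted p = 0.0914), and its unadjusted edgeR p was 0.00904. Over the alternatives its adjusted p ran from 0.0389, with DESeq2, to 0.399. The change stayed between -0.83 and -0.70 when any 1 sample was left out. Once corrected for the length and GC content of transcripts, it was -0.46 and no longer past the threshold.

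Telo2 (chr17:25099570-25115967) encodes a part of the TTT complex, which with HSP90 and the R2TP chaperone stabilises mTOR and related kinases. It had 8.45, 8.91 and 10.2 CPM in controls against 9.39, 10.8 and 5.64 CPM in mutants. The groups overlapped, with mutant sample 2 the highest and mutant sample 3 the lowest of the 6. The log2 change of -0.09 had an interval from -1.42 to 1.24 (edgeR, adjusted p = 0.959).

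**Figure D2:**
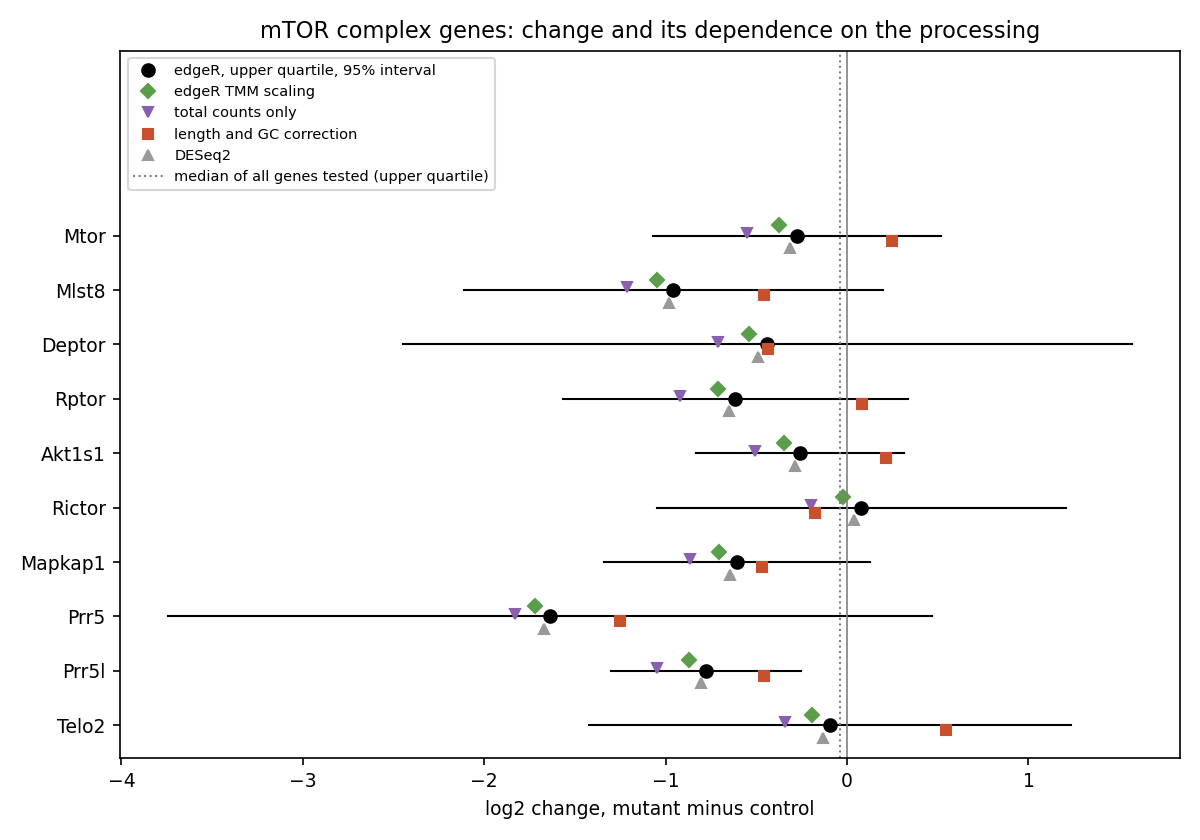
Log2 change (mutant minus control) of each gene. Black points and lines are the edgeR estimate with upper-quartile scaling and its 95% interval, coloured symbols are other scalings, DESeq2 and the length and GC correction, and the dotted line is the median of all genes tested. Only the interval of Prr5l lies wholly below 0, and the corrected values of Mtor, Rptor, Akt1s1 and Telo2 lie above it.

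Transcript length moved with the direction of change across all genes. Protein-coding genes with transcripts under 1000 bases had a median log2 change of 0.90, those of 1000 to 2000 bases 0.17, those of 2000 to 4000 bases -0.20, those of 4000 to 8000 bases -0.29 and longer ones -0.13. None of the 10 mTOR complex genes is in the shortest class, and 8 of them have transcripts over 2000 bases, from 3111 for Mapkap1 to 9312 for Rictor. GC content entered the correction too. The fitted trend (log2, mutant minus control) was 0.34 for Rictor and 0.12 for Deptor, lowest in GC at 42.5% and 44.3%. It was negative for all the others, such as -0.47 for Akt1s1, the highest in GC at 63.3%. The parts of length and GC content were not separated. With each sample's trend on length and GC content removed, 6 of the 10 changes were negative and their median was -0.31. Mtor, Rptor, Akt1s1 and Telo2 then had log2 changes of 0.25, 0.08, 0.21 and 0.55, Rictor had -0.18, and 0 of the 10 were past the threshold of the study. The 4 genes without overlap kept negative values of -0.46 for Mlst8, -0.47 for Mapkap1, -1.25 for Prr5 and -0.46 for Prr5l.

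**Figure D3:**
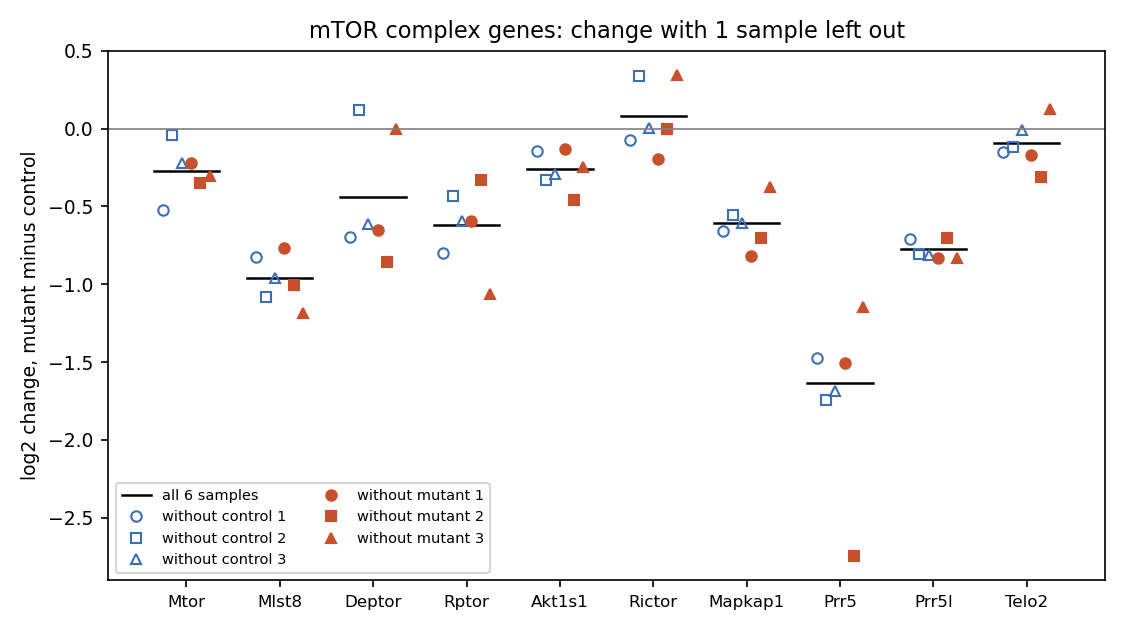
Log2 change (mutant minus control) of each gene with 1 sample left out in turn. Black bars are the value with all 6 samples, open blue symbols leave out a control sample and filled red symbols a mutant sample. Prr5l stays between -0.83 and -0.70, whereas Prr5 runs from -2.75 to -1.15 and Rictor, Deptor and Telo2 cross 0.

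Levels were compared between genes per kilobase of transcript, from the principal transcript of each. In the control samples Akt1s1 stood first at 43.8 ± 5.93 CPM per kilobase (SD, n = 3), followed by Prr5l at 14.8 ± 1.17 and Mapkap1 at 14.3 ± 0.961, whose ranges overlapped. Rptor at 6.35 ± 1.63 and Prr5 at 5.68 ± 1.10 came next and overlapped. Their lowest values, 4.63 and 4.84, lay below the highest of Mtor, 4.91, and that of Rptor also below the highest of Mlst8, 4.81. Mlst8 at 4.08 ± 0.731, which lay below the range of Prr5, Mtor at 3.77 ± 1.29 and Telo2 at 2.60 ± 0.262 overlapped each with the next. Rictor at 1.54 ± 0.447 and Deptor at 0.827 ± 0.465 came last, and their ranges overlapped. The scaffold of mTORC1, Rptor, was thus listed at a higher level per length than that of mTORC2, Rictor. The mTORC2 genes Prr5l and Mapkap1 stood above both. In the mutant samples Akt1s1 was still first and Deptor last, Mapkap1 and Prr5l changed places, and Prr5 moved from rank 5 to rank 8, at 1.82 ± 1.71 CPM per kilobase.

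**Figure D4:**
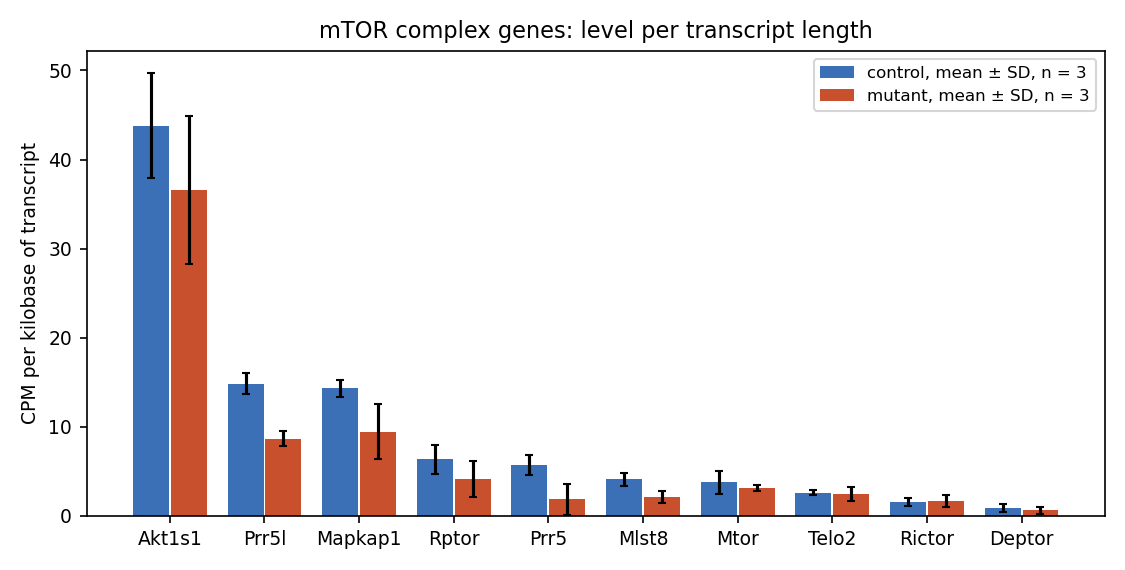
Mean level per kilobase of transcript (CPM per kilobase, linear scale) of each gene in control (blue) and mutant (red) samples, with SD over 3 samples as error bars. Akt1s1 stands far above the rest, and Rictor and Deptor are the lowest.

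Ratios between genes within a sample do not depend on the scaling, and 5 were compared with a two-sided exact permutation test over samples, in which 3 against 3 cannot give a p below 0.10. The ratio of Rptor to Rictor counts was 2.71, 2.72 and 3.37 in controls against 1.27, 0.898 and 4.68 in mutants. The mutant samples lay on both sides of the control samples (log2 difference -0.74, exact permutation p = 0.4, adjusted p = 0.667). The difference was -0.26 without mutant sample 2 and -1.45 without mutant sample 3. The ratio of Prr5 to Prr5l was 0.183, 0.145 and 0.160 in controls against 0.0693, 0.207 and 0.0166 in mutants. Per kilobase too, Prr5 stood below Prr5l in all 6 samples. Mutant sample 2 was above all control samples and the other two were below them (log2 difference -1.39, exact permutation p = 0.4, adjusted p = 0.667). The difference was -2.26 without mutant sample 2 and -0.44 without mutant sample 3. Mlst8 to Mtor was 0.917, 0.308 and 0.454 in controls against 0.231, 0.295 and 0.379 in mutants (log2 difference -0.77, exact permutation p = 0.2, adjusted p = 0.667), and the difference was -0.34 without control sample 1. The inhibitors gave ratios to Mtor that overlapped as well, with a log2 difference of -0.39 for Deptor (exact permutation p = 0.8) and of -0.06 for Akt1s1 (exact permutation p = 0.9). None of these 5 ratios separated the genotypes, and other pairs were not compared.

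**Figure D5:**
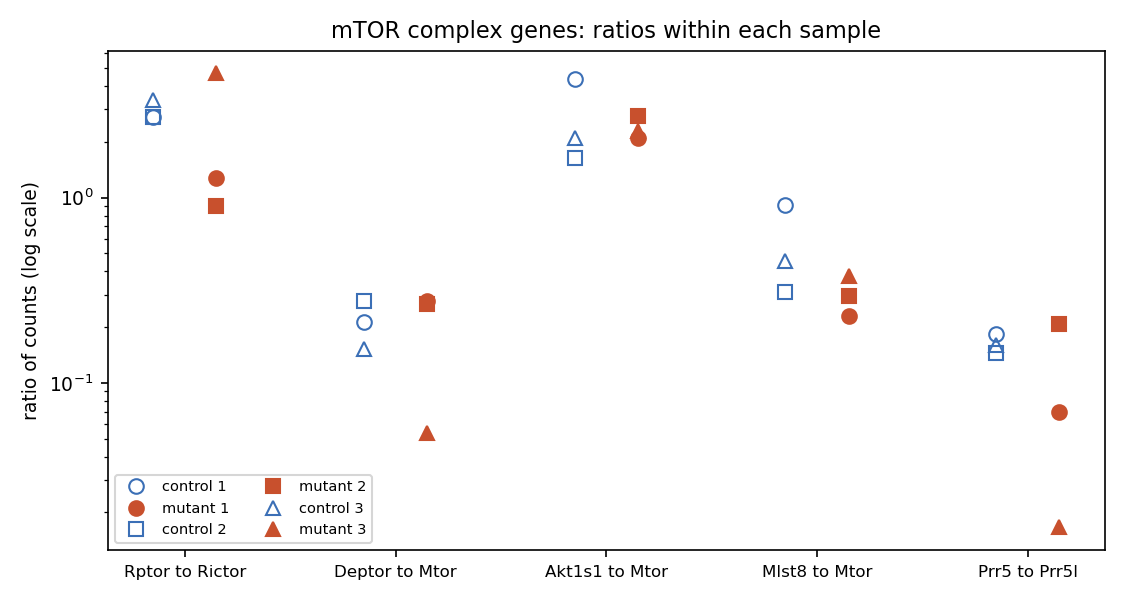
Ratio of the counts of gene pairs within each sample (log scale). Open blue symbols are control samples and filled red symbols mutant samples. The groups overlap for all 5 ratios, and Rptor to Rictor, Deptor to Mtor and Prr5 to Prr5l are spread more widely among mutant samples.

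The mutant samples, which held fewer counts, were also less alike, and the part of depth in this was not tested. The range over samples was wider in mutant than in control samples for 9 of the 10 mTOR complex genes, as for 74% of all genes tested, with a median range of 0.96 and 0.52 on the log2 scale where all genes had 1.29 and 0.67. Mutant sample 3 was the lowest of its group for 5 genes (Rictor, Deptor, Mapkap1, Prr5 and Telo2) and the highest for 3 (Rptor, Mlst8 and Prr5l). Summed over the 10 genes, the level was 305.7, 333.0 and 309.4 CPM in controls against 220.9, 239.2 and 215.5 CPM in mutants, with no overlap. Akt1s1 and Prr5l, the most abundant by counts, contribute most to these sums. The sums were not corrected for transcript length and GC content. How often sums over other genes lie apart was not tested, and 16.3% of single genes were lower without overlap.

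The wider pathway was described with 8 lists holding 64 genes, of which 63 passed the filter. At an adjusted p under 0.05, edgeR called 0 of them, DESeq2 5 (7.94%, where it called 10.2% of all genes) and limma-voom 0. Total counts gave 1 call, Eif4ebp2, and the replicate number as a block 1, Rheb. In edgeR with upper-quartile scaling 8 had an unadjusted p under 0.05, and these 8 were past the threshold of the study, 3 higher and 5 lower in the mutant samples. This is 12.7% of the 63 genes, below the 19.8% of all genes past the same threshold in either direction. The median log2 change over the 63 genes was -0.26. Upstream of mTORC1, 1 of 5 genes of the TSC and Rheb list was past the threshold of the study. This was Rheb, the GTPase that activates mTORC1, with 71.9, 36.8 and 57.4 CPM in controls against 164.1, 93.0 and 99.7 CPM in mutants. Every mutant lay above every control (log2 change 1.10; edgeR, adjusted p = 0.09998). Of the 9 genes of the Rag GTPases and Ragulator, which bring mTORC1 to the lysosome, 8 had positive changes (median 0.24), and Lamtor5 was past the threshold of the study with 50.8, 24.2 and 37.7 CPM in control and 60.7, 88.3 and 70.6 CPM in mutant samples. Its log2 change was 0.96 (edgeR, adjusted p = 0.129), and 0.07 with length and GC content corrected, and it was not past the threshold of the study at 0.73 with total counts or at 0.80 without mutant sample 2.

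Among 12 substrates of mTORC1, 9 had negative changes (median -0.36) and 2 were lower past the threshold of the study. Eif4ebp2, a repressor of translation initiation, had 91.0, 146.1 and 128.4 CPM in controls against 74.6, 68.5 and 69.2 CPM in mutants (log2 change -0.78; edgeR, adjusted p = 0.105). Ulk1, which encodes an autophagy-initiating kinase, had 30.8, 58.1 and 44.5 CPM in controls against 15.7, 21 and 29.1 CPM in mutants (log2 change -1.01; edgeR, adjusted p = 0.159). For both genes the groups were apart. Ulk1 was no longer past the threshold of the study with limma-voom, at -0.90, or without control sample 2, control sample 3 or mutant sample 2, at -0.78, -1.01 and -0.99. Rps6kb1, which encodes the S6 kinase, was named after its values were seen and had a log2 change of 0.34 (edgeR, adjusted p = 0.692).

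Among the substrates of mTORC2 and PDK1, 8 genes were tested, 7 had negative changes (median -0.52) and 2 were lower past the threshold of the study. These were the kinases Akt2, with 125.7, 120.0 and 113.8 CPM in control and 62.2, 89.6 and 61.1 CPM in mutant samples, and Akt1, with 213.0, 177.6 and 205.1 CPM in control and 151.7, 118.5 and 92.8 CPM in mutant samples. Neither gene overlapped between the groups (log2 changes -0.75 and -0.72; edgeR, adjusted p = 0.107 and 0.153). Akt1 was between -0.71 and -0.57, and no longer past the threshold of the study, without control sample 1, control sample 3, mutant sample 2 or mutant sample 3. Of the 9 genes of receptor and PI3K input, 7 had negative changes (median -0.46), and 1 gene was past the threshold of the study in each direction. The lower one was Irs2, an adaptor of the insulin receptor, which had 36.2, 95.3 and 90.6 CPM in controls against 29.9, 40.8 and 35.6 CPM in mutants, where control sample 1 overlapped with the mutant samples (log2 change -1.06; edgeR, adjusted p = 0.159). It too was no longer past the threshold of the study with limma-voom, at -0.89, or without control sample 2, control sample 3, mutant sample 1 or mutant sample 3, at -1.08 to -0.84.

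The 5 genes that DESeq2 called were all among these 8, and their adjusted p-values included 0.0339 for Rheb, 0.0358 for Akt2, 0.0451 for Akt1 and 0.0457 for Eif4ebp2. With length and GC content corrected, the log2 changes were 0.78 for Rheb, and -0.24 for Eif4ebp2, -0.24 for Ulk1, -0.18 for Akt2, -0.12 for Akt1 and -0.34 for Irs2 on the lower side. Rheb was the one of the 8 that remained past the threshold of the study under this correction.

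The remaining 3 lists had no gene past the threshold of the study with upper-quartile scaling in edgeR. The TELO2 partners and R2TP chaperones (8 genes) had a median log2 change of -0.18, the other kinases of the same family (Atm, Atr, Prkdc, Smg1 and Trrap) -0.02 over 5, and the regulators of DEPTOR, MLST8 and mTORC2 -0.46 over 7. Tti1, a direct partner of TELO2 that was named after its values were seen, had 12.7, 16.1 and 13.4 CPM in controls against 0, 11.4 and 0.202 CPM in mutants. Its mutant samples lay below the control samples but far apart from each other (log2 change -1.82, standard error 1.44; edgeR, adjusted p = 0.565). It was past the threshold of the study without mutant sample 2, at -6.74. So it was with limma-voom and with the replicate number as a block, both at -4.46, and both fits keep mutant sample 2. Without mutant sample 1 or mutant sample 3 it was -1.28 and -1.27 and was not. The values in mutant samples 1 and 3 lay below the 0.655 and 0.302 CPM that 3 counts are worth there, and the size of the change depended on the fit.

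The genes whose pattern was closest to that of Mtor over the 6 samples were found by the root-mean-square difference of log2 CPM values centred on each gene's mean, over 9706 genes with a mean of at least 10 CPM. Among the 5 nearest were Srrm1 at 0.106, R3hdm2 at 0.107, Itprid2 at 0.114 and Dync1h1 at 0.122. Srrm1, for example, had 45.8, 79.4 and 65.0 CPM in controls against 48.9, 63.9 and 58.9 CPM in mutants, low in control sample 1 and high in control sample 2 as Mtor was. Of the other mTOR complex genes, Deptor, Prr5 and Telo2 were below this level and were not compared, and the rest were less like Mtor. Akt1s1 was nearest at 0.441, with 2073 genes closer (Mtor itself included), and Mlst8 was farthest of those at this level at 0.635. This is a description of 6 samples that share their depth and tissue differences.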

How the data were processed

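The authors collected the proximal end of incisors, extracted RNA with a column kit, sequenced single reads and trimmed and aligned them to mm10 (GRCm38) in Partek Flow. The submitters' processing notes also list TopHat2 2.0.8. They deposited estimated counts per gene, not normalized. The counting model, annotation, strand setting and feature filter are not given in the sources used here. A second deposited table, of the authors' own comparison of the groups (p-values, ratios and fold changes), was not used.

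The estimated counts were rounded to whole numbers and analysed with edgeR 4.0.16 in R 4.3.3. Scaling was by the upper quartile, and low counts were filtered by edgeR's default. It asks for a level worth 10 counts at the median depth in at least 3 samples, and 15 counts in total. Genes at 0 in all mutant samples could thus pass. Genotype was the only term, and the two-sided quasi-likelihood test had Benjamini-Hochberg adjustment over all genes tested. Standard errors were approximated from the log2 change and its F statistic. Ratios within samples used counts plus 0.5 and an exact permutation test. Where no read was counted, up to 3 counts remain possible, or 0.655 CPM for mutant sample 1 and at most 0.0874 CPM for controls (counting error only). The test was checked on simulated counts.

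Transcript lengths, positions and overlaps came from GENCODE M21 on GRCm38 (principal transcripts), where 18637 symbols were found as written, 191 by a synonym and 232 were missing. Of the 10 genes, 9 had a promoter in the RefSeq table.

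The 10 genes, the pathway and marker lists and the tests were chosen with earlier results of these data known. Named were the 10 genes, Fgfr1, up to 2 genes higher and 2 lower with the smallest p in each pathway list, and the 5 genes nearest to Mtor, and 2 of the genes so selected are left unreported. Alternatives were TMM, total counts, no filter, a mean of at least 50 counts, DESeq2 1.42.0, limma-voom (limma 3.58.1), the replicate number as a block, control counts thinned to the mean total of the mutant samples, a centred correction of each sample's trend on transcript length and GC content, protein-coding genes only, and each sample left out. The counts of genes without overlap under other settings were added after seeing the data.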

Additional observations from a re-analysis of the deposited data

How the results depend on the processing

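No mTOR complex gene was higher past the threshold of the study under any alternative run. The number lower, 1 with upper-quartile scaling, was 3 with total counts (Mapkap1, Mlst8 and Prr5l), 3 with limma-voom (Mapkap1, Prr5 and Prr5l), 0 with the length and GC correction, and from 1 to 2 with a sample left out. The share of all genes, 8.92%, was 14.8%, 12.6%, 7.13% and 4.97% to 16.5% in the same settings. The second gene was Mapkap1 without mutant sample 1, Prr5 without mutant sample 2 and Rptor without mutant sample 3. At an adjusted p under 0.05 the number was 1 with total counts and 1 with DESeq2. The number without overlap ran from 4 to 6 with a sample left out (17.9% to 29.8% of all genes). Leaving out a sample cannot lower this number. Over all alternatives the median log2 change of the 10 genes stayed negative, from -0.79 to -0.31.

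With the length and GC correction the log2 changes of Mtor, Rptor, Akt1s1 and Telo2 were 0.25, 0.081, 0.21 and 0.55, that of Rictor was -0.18 and the log2 ratio difference of Rptor to Rictor was 0.25. Rictor was also at -0.02 with TMM, -0.20 with total counts and -0.063 with limma-voom, and from -0.19 to 0.35 with a sample left out. Deptor ranged from -0.86 to 0.12 with a sample left out and Telo2 from -0.31 to 0.13. The log2 ratio differences of Deptor to Mtor (-0.80 to 0.39) and Akt1s1 to Mtor (-0.36 to 0.35) crossed 0 in the same way. The cause was not tested.

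Over all genes, 1074 had an adjusted p under 0.05. This was 229 without a filter, 370 where a mean of 50 counts was required, 374 with control counts thinned, 138 with the length and GC correction, 54 over protein-coding genes, and from 76 to 606 with a sample left out. At the threshold of the study the count was 4733 without a filter and from 2006 to 4732 with a sample left out. The log2 change of Fgfr1 was -1.41 with DESeq2, the only alternative in which it was past the adjusted threshold. It was smallest in size with the length and GC correction, at -0.74 (edgeR, adjusted p = 0.258). Among the fits with a sample left out, the smallest was -0.99, without control sample 2 (edgeR, adjusted p = 0.226).

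Same-numbered control and mutant samples did not deviate together (correlations 0.0816, -0.0105 and 0.0848). With 3 samples per group, such low values cannot exclude a pairing. The methods speak of pairs of samples, and the labels do not say which belong together. With the replicate number as a block, 508 genes had an adjusted p under 0.05, and Prr5l stayed the 1 gene of the 10 past the threshold of the study.

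With 5276557 counts in mutant sample 1, genes as low as Prr5 and Deptor rested on 12 and 30 counts there, and their differences were bounded only widely.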
